A study of Mus musculus with 2 samples.

Results

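Of the 2202 microRNA genes counted in 2 mouse heart libraries, 1028 (46.7%) carry a name in the GENCODE annotation that does not begin with Mir. The rule that chose them uses gene type and name alone and no measured value, but it was set with earlier results of these data known. Of these genes, 1021 have a provisional Gm name, 4 an mmu-mir name, 2 an n-TS name and 1, Snord43, the name of a small nucleolar RNA (snoRNA). The other 1174 genes carry a Mir symbol and serve here as the comparison. The libraries were made from short RNA (size range below 30, with no unit given) of the hearts of adult female 5xFAD/CAST mice between 8 and 10 months old. 5xFAD mice serve as an Alzheimer disease model whose transgenes are driven by the neuronal Thy1 promoter, and CAST denotes a strain bred from wild-caught castaneus mice. The 2 libraries are numbered as biological replicates 1 and 2 of a single group, with nothing to compare it against. Both libraries carry the same donor identifier, so their differences may be technical, and the p-values below set them against counting error only.

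A microRNA is a short RNA cut by Drosha and Dicer from a hairpin that forms in a longer transcript, and it guides Argonaute proteins to messenger RNAs through a short seed at its 5′ end. Genome annotations hold curated microRNA genes as well as loci that resemble a microRNA hairpin by sequence and predicted folding. Such loci can lie in repeats, in exons, or over other small RNAs. SnoRNAs guide the chemical modification of ribosomal and other RNAs and often lie in introns of ribosomal protein and nucleolar genes, and transfer RNAs (tRNAs) carry amino acids to the ribosome. Fragments of both are found in small RNA libraries.

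The gene sequences of 3 members with high counts and of 1 close relative show which other RNA they hold, so they are printed from the GENCODE M21 transcripts (build mm10). Capitals mark TGATGA, the C box letters of box C/D snoRNAs, in Snord43 and mmu-mir-3535, and GGTTCGA, letters of the internal B box promoter of tRNA genes, in the other two.
Snord43, chr15:80082847-80082954, minus strand: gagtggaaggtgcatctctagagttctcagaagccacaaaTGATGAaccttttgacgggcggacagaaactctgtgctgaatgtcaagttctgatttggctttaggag
mmu-mir-3535, chr1:86351981-86352127, minus strand: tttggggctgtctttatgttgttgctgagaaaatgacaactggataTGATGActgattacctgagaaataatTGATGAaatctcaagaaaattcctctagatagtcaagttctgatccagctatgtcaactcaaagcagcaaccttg
n-TSaga9, chr4:10874064-10874170, plus strand: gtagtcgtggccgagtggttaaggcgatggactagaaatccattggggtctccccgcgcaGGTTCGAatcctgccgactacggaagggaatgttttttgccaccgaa
Gm44456, chr13:21924928-21925016, minus strand: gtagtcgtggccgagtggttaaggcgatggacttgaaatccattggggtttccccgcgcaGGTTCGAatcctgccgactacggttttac

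Searched on both strands, TGATGA occurred in 17 of the 1028 genes (1.65%), in 40 Mir genes (3.41%) and in 57 of all 2202 (2.59%). GGTTCGA occurred in 5 of the 1028 (0.486%), in 1 Mir gene (0.0852%) and in 6 of all 2202 (0.272%). Those of the 5 that had a count were n-TSaga9, Gm44456 and n-TStga1. A match describes letters only.

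RefSeq lists a mature microRNA for 3 of the members detected below, and these are the only detected members whose seed can be read. The seed, bases 2 to 8, is in capitals.
mmu-miR-3535 (gene mmu-mir-3535): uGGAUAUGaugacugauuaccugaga
mmu-miR-9769-5p (gene Gm38670): aGGCACAGaauuaggcccgacc
mmu-miR-9769-3p (gene Gm38670): uAGGGUCUguucuguguccucc
mmu-miR-935 (gene Gm23450): cCCAGUUAccgcuuccgcuaccgc
Each of these 4 seeds occurred in 1 of the 1738 mature sequences of the RefSeq table, so none was shared with another listed microRNA. In all, 15 of the 1028 genes matched a RefSeq hairpin, 7 of them had a count and 3 were detected.

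Of the counts assigned to microRNA genes in these heart libraries, the 1028 genes held very little. They received 1605 of 4186560 gene counts in replicate 1, or 0.0383% (exact Clopper-Pearson 95% interval 0.0365 to 0.0403), and 819 of 2877511 in replicate 2, or 0.0285% (0.0265 to 0.0305). The mean share was 0.0334% ± 0.00698 (SD, n = 2). The intervals cover counting error only, since these reads carry no molecular identifiers. Snord43 alone took 45.1% and 34.3% of these counts. Without it the shares were 0.0210% and 0.0187%.

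A gene was called detected at 1 count per 1000000 gene counts (CPM) or more in both libraries. By that rule 16 of 1028 genes without a Mir symbol (1.56%) were detected, against 364 of 1174 Mir genes (31.0%) and 380 of all 2202 (17.3%). No read at all was assigned to 973 (94.6%), against 520 Mir genes (44.3%). The 16 detected genes held 94.5% and 93.8% of the counts of the 1028, and the 4 highest held 76.9% and 71.8%. Their median level was 3.86 CPM, against 37.9 CPM for the 364 detected Mir genes. Reads that mapped to several loci, 42.4% and 43.2% of all reads, were assigned to no gene. A count of 0 allows up to 3 counts, 0.717 CPM in replicate 1 and 1.04 CPM in replicate 2, of reads unique to a locus, and it sets no upper limit on the RNA of a gene that shares its sequence. In bulk tissue, fewer cells of a type and less RNA per cell cannot be told apart.

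Among microRNA genes of cardiomyocytes, Mir208a, which lies in the cardiac myosin gene Myh6, stood at 1638 and 1074 CPM, Mir499 at 4787 and 3618 CPM and Mir208b at 41.8 and 22.2 CPM. The 4 Mir1a and Mir133a genes, which have copies and hold only unique reads, summed to 78.1 and 74.0 CPM. Endothelial Mir126a had 174314 and 46780 CPM, and the 2 erythroid genes summed to 755 and 230 CPM, both higher in replicate 1. The 2 smooth muscle genes summed to 32911 and 56334 CPM, the 4 leukocyte genes to 5369 and 7640 CPM, and Mir122 of hepatocytes had 19.1 and 57.3 CPM, all higher in replicate 2. The 3 Mir124a genes and Mir9-2, neuronal genes that also have copies, had 0 unique reads, and Mir9-1 had 0 and 3. The part of these differences in the results below was not tested.

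**Figure D1:**
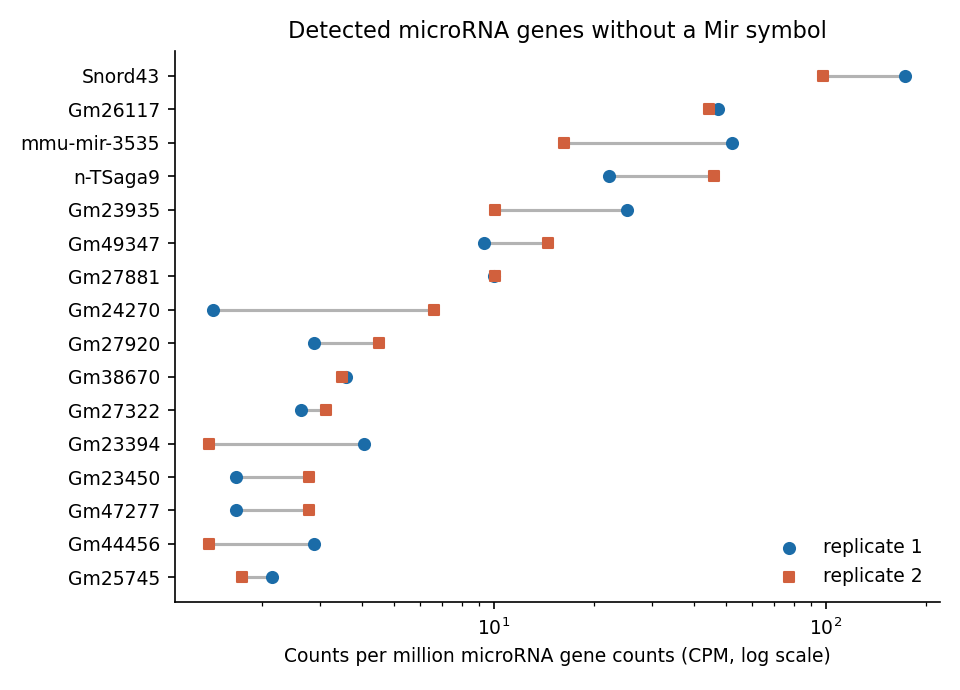
Level of each of the 16 detected genes without a Mir symbol in CPM (log axis), with replicate 1 as circles and replicate 2 as squares joined by a line. Snord43 stands highest in both libraries, and the symbols of Gm26117, Gm27881 and Gm38670 nearly coincide.

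Genes that lie over an annotated small RNA of another type made up 30 of the 1028 (2.92%) and held 69.8% and 63.2% of the counts. Of these, 13 lie over a snoRNA, with 997 and 382 counts, and 3 over a tRNA, with 107 and 136 counts. The remaining 14 had 16 and 0 counts. Detection reached 6 of the 30. Of 15 Mir genes over another small RNA, 11 were detected, but these Mir genes held 0.102% and 0.0770% of the Mir counts.

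Snord43 had 724 counts (173 CPM) in replicate 1 and 281 (97.7 CPM) in replicate 2, and 119 Mir genes had a higher mean level. Its gene lies in an intron of Rpl3, which encodes a protein of the large ribosomal subunit. RefSeq annotates the 48-base snoRNA Snord43 at positions 80082859 to 80082906, within the 108 bases of the microRNA gene printed above, and the capitals stand just upstream of that interval. Replicate 1 was higher.

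The gene mmu-mir-3535 had 219 counts (52.3 CPM) in replicate 1 and 47 (16.3 CPM) in replicate 2. It lies in Ncl, which encodes the nucleolar protein nucleolin, overlaps an exon of a retained-intron transcript there, and covers all 80 bases of the annotated snoRNA Gm24148 at positions 86352008 to 86352087. The 26-base mature sequence listed by RefSeq, at positions 86352062 to 86352087, begins at the 5′ end of that snoRNA and holds a C box motif. Counts were per gene, so reads of the listed mature form and of the rest of the snoRNA cannot be told apart.

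Gm49347, which overlaps the H/ACA snoRNA Snora74a by 96 bases, had 39 and 42 counts (9.32 and 14.6 CPM). Gm47277 overlaps the snoRNA Gm24698 by 88 bases in Champ1, a gene for a chromosome alignment protein, and had 7 and 8 counts (1.67 and 2.78 CPM). These 2 genes had a higher CPM in replicate 2, while Snord43 and mmu-mir-3535 were higher in replicate 1. Gm49346, over Snora81 in the translation factor gene Eif4a2, had 5 and 2 counts and was not detected.

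The tRNA gene n-TSaga9, by its name a serine tRNA with anticodon AGA, had 93 counts (22.2 CPM) in replicate 1 and 132 (45.9 CPM) in replicate 2. All 82 bases of the RefSeq tRNA lie in the 107 bases of the microRNA gene. Gm44456 covers the 82 bases of n-TStga2, a serine tRNA with anticodon TGA, and had 12 and 4 counts (2.87 and 1.39 CPM). Over those 82 bases the 2 sequences differ by the substitutions A34T and C50T, counted from 1 at the 5′ end of n-TSaga9 with its base first. The third gene of the kind, n-TStga1, had 2 and 0 counts. Replicate 2 was thus the higher library for n-TSaga9 and replicate 1 for Gm44456, but the counts of Gm44456 were too few for the main test, and without the count filter its log2 ratio of replicate 2 over replicate 1 was -0.97 (95% interval -3.06 to 0.75, adjusted p = 0.584, exact binomial test).

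Gm47295 overlaps by 77 of its 79 bases Rn7s1, a gene for the 7SL RNA of the signal recognition particle. It had 16 counts in replicate 1 and 0 in replicate 2. It was not detected by the rule of both libraries, and the 0 allows up to 1.04 CPM of unique reads.

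**Figure D2:**
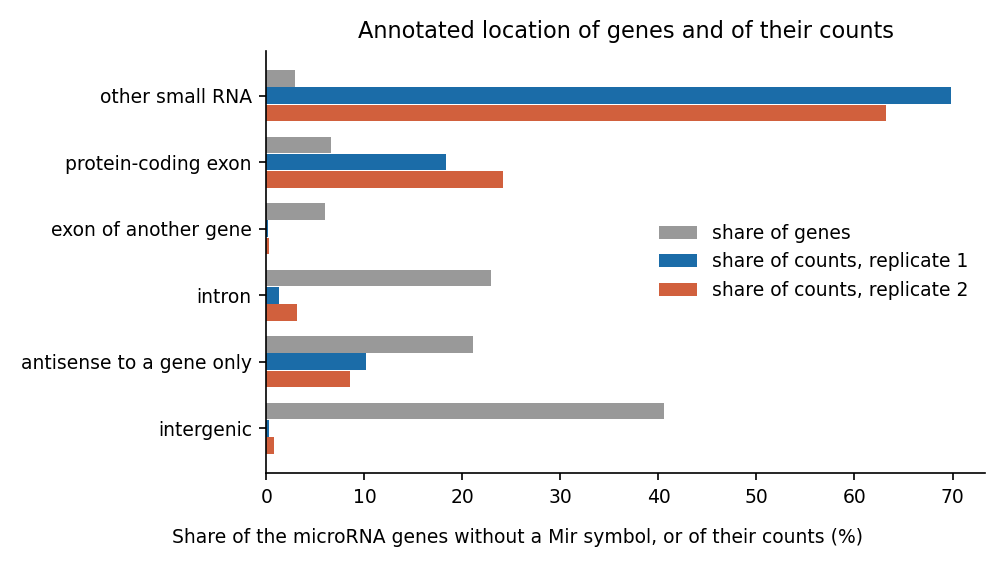
Share of the 1028 genes without a Mir symbol in each annotated location (grey bars) and share of their counts in replicate 1 and replicate 2 (coloured bars), in percent. Genes over another small RNA are 2.92% of the genes and hold 69.8% and 63.2% of the counts, while intergenic genes are 40.6% of the genes and hold 0.249% and 0.733%.

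Exons of protein-coding genes held the next largest part, with 294 and 197 counts (18.3% and 24.1%) in 68 genes, 7 of which were detected. Of those 7, 5 overlap a 5′ UTR, 3 a coding sequence and 0 a 3′ UTR. Among all 68, 32 overlap a 5′ UTR, 39 a coding sequence and 10 a 3′ UTR. Of 173 Mir genes in such exons, 52 were detected.

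Gm26117 led this class with 198 counts (47.3 CPM) in replicate 1 and 128 (44.5 CPM) in replicate 2, so the 2 libraries lay close together. It lies at chr15:74563821-74563915 on the plus strand, in the 5′ UTR of Adgrb1, an adhesion G protein-coupled receptor, and 91.6% of its 95 bases are G or C. It shares no run of 18 bases with another microRNA gene.

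The other 6 detected exonic genes were all under 5 CPM. Gm27920, in the 5′ UTR and coding sequence of the deubiquitinase gene Usp15, had 12 and 13 counts. Gm27322, in the 5′ UTR of the ubiquitin ligase gene Smurf2, had 11 and 9. Gm23394, in the 5′ UTR of Ralgapa1, a Ral GTPase-activating protein, had 17 and 4. In CPM, replicates 1 and 2 stood at 2.87 and 4.52 for Gm27920, 2.63 and 3.13 for Gm27322, and 4.06 and 1.39 for Gm23394.

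Gm25745, in the 5′ UTR and coding sequence of Hsp90b1, a chaperone of the endoplasmic reticulum, had 9 and 5 counts. Gm23450, which holds mmu-miR-935 in the coding sequence of Cacng8, an auxiliary subunit of AMPA receptors, had 7 and 8. Gm38670, which holds both arms of miR-9769, had 15 and 10 counts (3.58 and 3.48 CPM). It lies at chr7:30552828-30552904 on the plus strand and overlaps an exon, but no annotated UTR or coding sequence, of Hspb6, which encodes a small heat shock protein of muscle. It and Gm23450 are thus the detected members that have a RefSeq mature microRNA and lie over no other small RNA.

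Intergenic genes were the largest class, 417 of 1028 (40.6%). They had 4 and 6 counts in all and 0 were detected, whereas 73 of 216 intergenic Mir genes were. Introns held 235 members, 1 of them detected, with 21 and 26 counts, against 149 detected of 556 intronic Mir genes. Exons of other genes held 61 members, 0 detected, against 50 of 83 for Mir genes. Another 217 lie only opposite a gene, and 2 of these were detected, against 29 of 131 for Mir genes.

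These last 2 were Gm23935 and Gm27881. Gm27881, opposite Ncoa2, a coactivator of nuclear receptors, had 42 and 29 counts, or 10.0 and 10.1 CPM, nearly the same in both libraries. It lies at chr1:13262198-13262279 on the plus strand. Gm23935, opposite the zinc finger gene Zc3h7a, had 105 counts (25.1 CPM) in replicate 1 and 29 (10.1 CPM) in replicate 2.

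The 57 bases of Gm23935 are printed because 2 other genes hold the same letters.
Gm23935, chr16:11144125-11144181, plus strand: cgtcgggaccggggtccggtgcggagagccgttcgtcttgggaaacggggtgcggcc
Gm24270, in an intron of the pseudokinase gene Peak1 on chromosome 9, has this identical sequence and had 6 counts (1.43 CPM) in replicate 1 and 19 (6.60 CPM) in replicate 2. Gm24245 on chromosome 4, also identical, had 0 and 2 counts. Replicate 1 was thus the higher library for Gm23935 and the lower for Gm24270. Of the 6 genes that share a run with this sequence, itself included, 5 had a count. The files hold no read positions, so how reads were assigned to 1 copy was not tested.

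Levels between genes were compared per 100 bases of gene length. Snord43 led with 125 ± 49.3 CPM per 100 bases (SD, n = 2), and Gm26117 followed with 48.3 ± 2.09. The next values were 31.8 ± 15.6 for n-TSaga9, 30.8 ± 18.6 for Gm23935 and 23.3 ± 17.3 for mmu-mir-3535. These 3 neighbours did not differ beyond their spread, while Snord43 stood above Gm26117, and Gm26117 above the 3, in both libraries. Gm27881 followed with 12.3 ± 0.0397 and Gm49347 with 10.8 ± 3.36, which again differed by less than the spread. In CPM without length scaling, mmu-mir-3535 stood above Gm26117 in replicate 1 (52.3 against 47.3). In replicate 2, n-TSaga9 did so (45.9 against 44.5). Whether counts of such short RNA scale with gene length was not tested.

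Between the 2 libraries, 9 of the 1028 genes had enough counts to be tested, and 5 of the 9 differed beyond counting error by the exact binomial test, against a background of 63.4% of the 309 genes tested. Of the 5, 2 were higher in replicate 2 (background 35.3%) and 3 lower (background 28.2%), so differing was about as common as among all tested genes. The test compares these 2 libraries, not conditions. The median log2 ratio of replicate 2 over replicate 1, scaled by TMM factors (trimmed mean of M values), was 0.03 over the 9 genes and 0.01 over all 309.

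The 3 lower genes were mmu-mir-3535, with a log2 ratio of -1.61 (95% interval -2.09 to -1.15, adjusted p = 5.41e-14, exact binomial test), Gm23935, with -1.24 (-1.89 to -0.64, adjusted p = 2.78e-05, exact) and Snord43, with -0.75 (-0.96 to -0.55, adjusted p = 5.95e-14, exact). The 2 higher were n-TSaga9, with 1.12 (0.72 to 1.52, adjusted p = 2.54e-08, exact) and Gm49347, with 0.72 (0.06 to 1.39, adjusted p = 0.0476, exact). With plain library totals, without the count filter, or with counts regardless of strand, Gm49347 did not pass (adjusted p 0.0824, 0.0927 and 0.0658, exact).

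The other 4 tested genes did not pass. Gm26117 had a log2 ratio of -0.02 (-0.35 to 0.31), Gm27881 of 0.08 (-0.66 to 0.80), Gm38670 of 0.03 (-1.29 to 1.28) and Gm27920 of 0.73 (-0.52 to 1.99). The intervals of Gm38670 and Gm27920 take in a 2-fold difference (a log2 ratio of 1), so one of that size is not excluded for them.

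**Figure D3:**
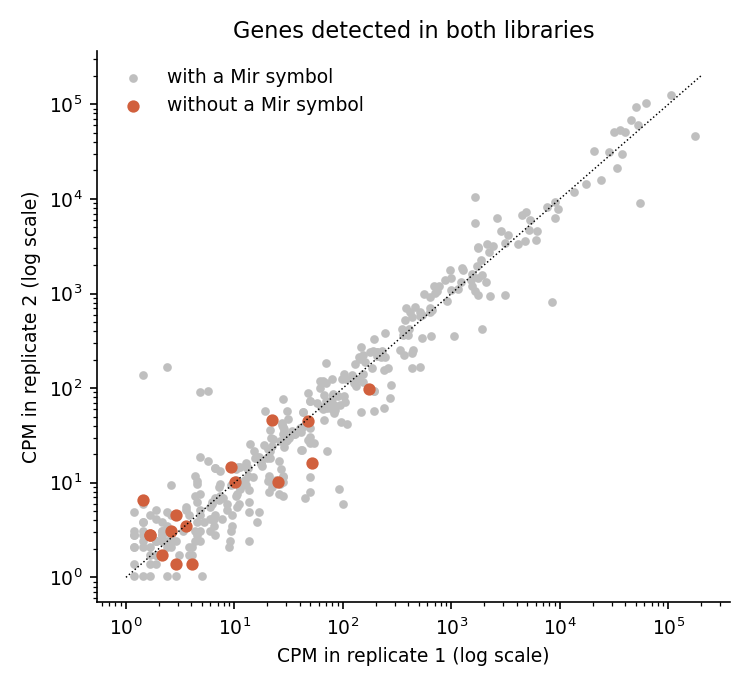
Level of every detected gene in replicate 1 (horizontal) and replicate 2 (vertical), in CPM on log axes, with the dotted line at equal levels. The 16 genes without a Mir symbol (orange) lie in the lower part of the range of the 364 Mir genes (grey), on both sides of the line.

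Most genes without a Mir symbol share sequence with another microRNA gene. A run of 18 bases in common with another microRNA gene, on either strand, was found for 861 of 1028 (83.8%) and for 318 of 1174 Mir genes (27.1%). At least 10 such relatives were found for 629 (61.2%) and for 102 Mir genes (8.69%). Detection was 11 of 167 (6.59%) among members without a relative, 5 of 232 (2.16%) with 1 to 9 and 0 of 629 with 10 or more. For Mir genes it was 260 of 856 (30.4%), 97 of 216 (44.9%) and 7 of 102 (6.86%). Among genes with no relative, the share detected was thus also lower without a Mir symbol than with one. Relatives were sought among the microRNA genes only, so a gene with no relative may still have copies elsewhere in the genome. Such copies were not examined.

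**Figure D4:**
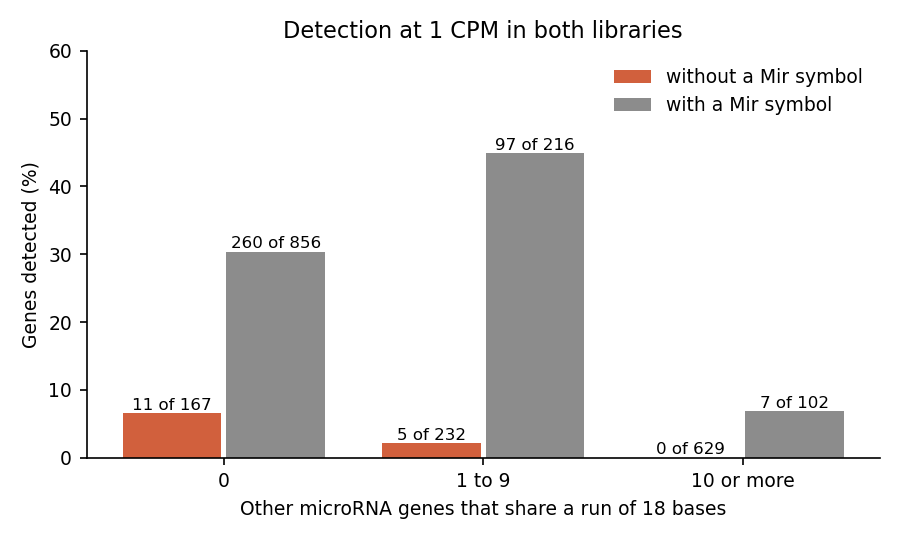
Percent of genes detected at 1 CPM in both libraries, by the number of other microRNA genes that share a run of 18 bases, for genes without (orange) and with (grey) a Mir symbol. The numbers over the bars give the genes detected of the genes in each class, from 11 of 167 to 0 of 629 without a Mir symbol.

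The 5 largest groups of members linked by such runs hold 491 genes, which had 2 and 1 counts together. Their most common shared runs are printed to show what each group holds.
194 genes on 21 chromosomes: ACACACACACACACACAC
99 genes: GGGCATCTGCTGACATGG
93 genes: TGTAGACCAGGCTGGCCT
56 genes: AAATGCCTCCATGAGATC
49 genes: GAAGGGAGTCTAGCTCTT
The first run, a simple CA repeat, was present in 107 of its 194 genes, in 4 Mir genes and in 5.04% of all 2202. The third run consists of letters found in B1 elements, the abundant short interspersed repeats of the mouse. All groups but the first had 0 counts in both libraries. Identical whole sequences were also common: 47 sequences were each held by 2 or more members, 196 in all, with up to 27 copies. Of these 196 genes, 3 had a count and 2, Gm23935 and Gm24270, were detected.

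A group of 24 genes had another make-up, and 19 of its members lie opposite genes for histone H2A, the core histone whose replication-dependent genes are clustered in the genome. Of the 19, 15 are on chromosome 13, 3 on chromosome 3 and 1 on chromosome 11. The example printed occurs in 9 identical copies, 8 of them opposite an H2A gene. It lies within the span of the Hist1h2ae coding sequence, on the other strand.
Gm44394, chr13:23570726-23570863, plus strand, opposite Hist1h2ae: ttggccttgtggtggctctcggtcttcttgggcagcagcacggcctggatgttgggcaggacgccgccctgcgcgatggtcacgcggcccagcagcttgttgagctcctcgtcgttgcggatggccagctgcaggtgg
All 19 had 0 counts on their own strand in both libraries, which with their shared letters limits only reads unique to 1 copy.

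Sfmbt2, a Polycomb group gene with a large microRNA cluster in an intron, holds 48 members and 71 Mir genes. The 48 members had 1 count in each library and none was detected, and 47 of them share a run of 18 bases with another microRNA gene. The 71 Mir genes had 3290 and 2843 counts, 6 were detected, and 70 share such a run. How far the shared runs extend was not compared. Of the 48 members, 39 belong to the group of 194 genes above, of which 107 hold the CA run. How many of the 39 hold that run was not counted.

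Detected members had a higher median GC content than the rest, a description with no test. It was 60.1%, against 50.5% for the 1012 members not detected, 51.5% for detected and 50.7% for undetected Mir genes. Of 43 members with a GC content of 70% or more, 6 were detected, and of 27 such Mir genes 11 were. The 6 include Gm23935 and Gm24270, which hold the same sequence, and the 70% cut was not among the planned settings. Median gene length was 94.5 bases for detected and 104 for undetected members, and 82.5 and 80.0 bases for Mir genes.

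The predicted minimum folding energy, in kcal/mol per 100 bases, had a median of -38.2 for detected and -31.8 for undetected members. For Mir genes the medians were -43.8 and -38.8, so Mir genes folded more stably by this prediction in both classes. Folding energy moves with GC content, and the part of each was not tested.

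**Figure D5:**
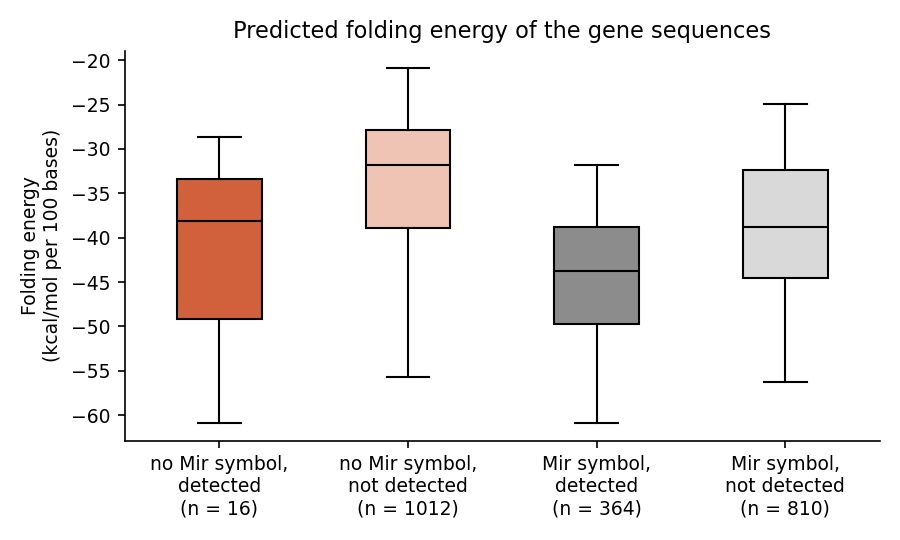
Predicted minimum folding energy of the gene sequences in kcal/mol per 100 bases, for genes without and with a Mir symbol, detected or not; boxes span the interquartile range with the median as a line, and whiskers reach the 5th and 95th percentiles. Medians are -38.2 and -31.8 without a Mir symbol and -43.8 and -38.8 with one.

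Members whose Ensembl gene number is 100000 or above, a boundary chosen after the values were seen, numbered 185, of which 7 were detected, and they held 71.2% and 65.0% of the members' counts. The 843 with lower numbers held the rest, with 9 detected. Snord43, mmu-mir-3535 and n-TSaga9 belong to the former, Gm26117 and Gm23935 to the latter.

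Below the 16, several genes stood close to the detection rule. Gm25262, opposite Gm12473, had 0.717 and 3.13 CPM, and Gm24589, which spans a whole intron of the polycystin gene Pkd1, had 3.11 and 0.695 CPM. Gm23634, in the 5′ UTR of the microtubule regulator gene Stmn1, had 0.955 and 1.04 CPM. Of the other genes among the 25 highest, Gm27486 in the 5′ UTR of Sbno1 had 5 and 2 counts, and Gm22133 in the ferritin gene Ftl1 had 3 and 2. Gm27646, in a coding sequence, had 2 and 3, and Gm22120, opposite Gm48807, had 6 and 0. At the low end of the detected genes, Gm25745 had 2.15 and 1.74 CPM. The 30 members with a count outside the 25 highest had 32 and 28 counts in all, with at most 4 in 1 library. Among these were Gm23363, which holds mmu-miR-3154 opposite the dynamin gene Dnm1, with 4 and 0 counts, and Gm24572 and Gm24627, which hold mmu-miR-3618 in Dgcr8 and mmu-miR-1911 in Htr2c, with 0 and 1 each. These 3 genes were named for their RefSeq hairpins after their values were seen.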

How the data were processed

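Reads were counted per microRNA gene by the authors, and the deposited tables hold raw counts regardless of strand, on the strand of the gene and on the opposite strand; the strand of each column was inferred from the values. Aligner and counter: not given in the sources used here. Build mm10 and annotation M21 are per the deposited readme. The 4 rows that name no gene held 19.0% unmapped, 42.4% multimapping and 6.94% unassigned reads of 13233055 in replicate 1, and 17.5%, 43.2% and 7.11% of 8930289 in replicate 2; they were left out of library sizes and tests.

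All 2202 gene identifiers matched GENCODE M21, which gave names, positions and sequences. The name Gm24022 is carried by 2 identifiers. A gene was placed by same-strand overlap, in this order: another small RNA (GENCODE or RefSeq), protein-coding exon, exon of another gene, intron, opposite a gene only, intergenic. RefSeq small RNAs were the exception and were matched on either strand. Promoters were not examined. Folding energies came from RNAfold 2.7.2. Genes kept by filterByExpr of edgeR 4.0.16 (minimum count 10, R 4.3.3) were tested by a two-sided exact binomial test on their counts given TMM-scaled totals, with Benjamini-Hochberg adjustment over all 309 and a threshold of 0.05. Intervals are exact Clopper-Pearson 95% intervals. Simulated counts held counting error only and were tested with their known totals in place of TMM-scaled ones. Of their 320 genes tested, 100 of 100 raised and 87 of 99 lowered 2-fold were recovered, with 0 calls among 121 unchanged genes. That simulation does not measure calls under variation beyond counting error, nor the TMM scaling. Its changed genes were drawn only from genes above a minimum expected count. Recovery among the tested genes with the fewest counts was therefore not measured. DESeq2 1.42.0 gave alternative size factors. Other steps ran in Python 3.11.15 with scipy 1.17.1 and pandas 2.3.3.

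The genes named are the 25 with the highest mean CPM, those past the test, the 9 opposite a Mir gene, and others said to be chosen later. The members, lists and tests were chosen with earlier results of these data known.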

Additional observations from a re-analysis of the deposited data

Results flagged for a closer look

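Signal in the opposite-strand column, which the comparisons do not use, lay above the 3 counts that a count of 0 allows in both libraries for 7 of the 9 genes without a Mir symbol that lie opposite another microRNA gene. Gm25301, opposite Mir378a, had 442178 such counts in replicate 1 and 363354 in replicate 2. Gm24083, opposite Mir191, had 31575 and 23676, and Gm25927, opposite Mirlet7e, had 22182 and 17375. Gm24111, opposite Mirlet7f-1, had 603 and 581, Gm24321, opposite Mir409, had 120 and 68, Gm25252, opposite Mir376a, had 47 and 25, and Gm25750, opposite Mir380, had 11 and 6. The other two, Gm44322, opposite Mir539, and Gm25641, opposite Mir9-1, had 4 and 2 and 0 and 3. The partners had the same numbers on their own strand, except that Mir378a had 442177 in replicate 1. On their own strand these 9 genes had at most 1 count in either library. The 1019 members without such a partner had 6 and 9 opposite-strand counts in all.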

How the results depend on the processing

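The number of detected genes without a Mir symbol was 29 at 1 count in both libraries, 55 at 1 count in either, 6 at 10 CPM in both, 8 on the opposite strand and 10 without genes over another small RNA, against 16. It was 18 regardless of strand, 16 without genes that overlap a microRNA gene and 11 without genes that share a run of 18 bases. Leaving out either replicate gave 21. The mean share of counts, 0.0334%, became 0.0456% regardless of strand, over the total of that column, and 0.0106% of all reads. It was 0.0110% without genes over another small RNA and 0.0199% without Snord43. Single replicates gave 0.0285% to 0.0383%. On the opposite strand the members held 54.9% of that column's own total, which also set the CPM of the 8 genes above. Gm25301, opposite Mir378a, held 442178 of the members' 496726 opposite-strand counts in replicate 1 and 363354 of 405099 in replicate 2. The 5 genes that differed between the libraries became 5 with DESeq2 size factors, 4 with plain totals, 4 regardless of strand and 6 without the count filter. The last lost Gm49347 and added Gm47295 and Gm24270, whose log2 ratio was 2.28 (0.89 to 3.89, adjusted p = 0.00124, exact binomial test). Of 36 ratios recomputed for the 9 tested genes, 33 kept their side of the threshold, and the 3 that did not were those of Gm49347 (0.65 with plain totals, 0.72 without the filter, 0.67 regardless of strand), whose cause was not tested. Plain totals moved the median log2 ratio of all genes by -0.07. No paired analysis was possible because the design holds 1 group. Depth limits genes below about 1 CPM, and reads shared between loci are missing from all values.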
